A study of Mus musculus with 130 samples.

Results

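The genes described here encode the subunits of the proteasome and the proteins that assemble, activate or inhibit it. They were chosen by symbol, as the mouse genes named Psma, Psmb, Psmc, Psmd, Psme, Psmf or Psmg with a number. The rule matched 56 of 36134 genes in the tables. Of these, 49 are proteasome genes, 5 are pseudogenes, and 2 (Psmc3ip and Psme3ip1) are other genes whose symbols match. The 49 are the members, and the other 7 are given apart. The RNA came from single 2-cell embryos of B6129F1 mice, a hybrid strain, and cDNA was made by Smart-seq2 from an oligo-dT primer, so that poly(A) transcripts were read along their length. The zygotes were isolated 5 hours after fertilization and cultured in KSOM medium in wet chambers, with no oil layer in either group. From 6 hours, 80 embryos were cultured with 10 µM SR1848 and 50 with 0.1% DMSO. The titles of the controls give the condition as NT, while their treatment entry gives 0.1% DMSO. SR1848 is a synthetic compound applied to block the nuclear receptor Nr5a2, also named LRH-1. The study's design text lists 56 controls, and 6 of them were not analysed here.

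The proteasome is the large protease of the cytosol and nucleus that degrades proteins tagged with ubiquitin. Its core is a barrel of stacked rings: the outer rings are made of α subunits, which gate the entrance, and the inner rings of β subunits, some of which carry the cutting sites. A regulatory particle caps the barrel. Its base holds a ring of ATPases that unfold the substrate, and its lid removes the ubiquitin chain. Dedicated chaperones put core and cap together. In early mouse embryos the proteasome is known for clearing proteins inherited from the egg, at the time when transcription of the embryo's own genome begins.

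Total counts assigned to genes ran from 3150177 to 8380224 per embryo with DMSO and from 2705985 to 7773631 with SR1848. The labels leave out mothers, culture drops and plates, so p-values measure only the spread between these embryos, which may in part be technical. Nr5a2 itself stood at 99.2 ± 27.7 CPM (counts scaled to a common library total; SD, n = 50) with DMSO and at 10.5 ± 7.65 (n = 80) with SR1848. All 10 listed markers of the egg and 2-cell embryo were high enough to be tested, and 9 of them were higher with SR1848 (median log2 fold change 1.15 over the 10; Tcstv3 13.7-fold and Zscan4c 7.84-fold, named after their values were seen). Of the 10 markers of cumulus cells, 1 was high enough to be tested (Tnfaip6, lower with SR1848, log2 fold change -1.26). For sperm 0 of 7 were, with Smcp at 0 in every embryo. Blood and immune cells had 2 of 8 tested, Hba-a1 and Cd74, both higher with SR1848. Summed blood markers lay between 0.777 and 50.1 CPM with DMSO and between 16.9 and 328.7 with SR1848, and Hba-a1 alone stood at 13.8 ± 10.7 and 86.15 ± 63.5 CPM. Summed cumulus markers lay between 0 and 18.3 CPM with DMSO and between 0.307 and 245.7 with SR1848, with medians of 3.12 and 4.27, and the highest treated value is mostly Inha in 1 embryo (238.2 CPM). Their part in the results below was not tested.

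Promoter windows of 41 of the 49 members were matched by symbol in a RefSeq table (build GRCm38.p6), which holds 44 windows for them, each running from 250 bases before the annotated start to 50 bases after it. Since most tested members fell, parts of 6 windows are shown, 5′ to 3′ on the gene's strand, without bases that the annotation places in an exon. Psmd14, Psma3 and Psmb4 are shown because no SR1848 embryo reached the level of any DMSO embryo. Psmd11 was the most abundant subunit per length, Psmd4 fell 1.85-fold, less than most of the lid and base, and Psmg1 rose. Capitals mark the motifs found on either strand, so that a motif on the other strand appears as its reverse complement: the CCAAT box, CCGGAAG (a site of the Ets family), AAGGTCA (the kind of site that Nr5a2 binds) and TATAAA (the TATA box).
Psmd14: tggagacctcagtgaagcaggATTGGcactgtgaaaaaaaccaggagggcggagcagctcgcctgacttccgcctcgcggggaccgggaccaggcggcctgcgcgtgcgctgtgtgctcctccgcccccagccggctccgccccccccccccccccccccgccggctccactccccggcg
Psma3: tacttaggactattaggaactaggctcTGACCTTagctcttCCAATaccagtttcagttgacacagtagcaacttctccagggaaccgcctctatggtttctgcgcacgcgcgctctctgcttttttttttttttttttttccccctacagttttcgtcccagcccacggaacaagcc
Psmb4: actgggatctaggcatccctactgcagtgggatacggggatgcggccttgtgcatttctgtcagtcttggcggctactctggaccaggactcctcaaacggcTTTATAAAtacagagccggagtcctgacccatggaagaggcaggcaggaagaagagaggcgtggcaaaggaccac
Psmd11: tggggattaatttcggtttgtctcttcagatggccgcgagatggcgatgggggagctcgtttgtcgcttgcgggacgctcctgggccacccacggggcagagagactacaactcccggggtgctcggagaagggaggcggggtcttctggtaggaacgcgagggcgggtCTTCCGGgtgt
Psmd4: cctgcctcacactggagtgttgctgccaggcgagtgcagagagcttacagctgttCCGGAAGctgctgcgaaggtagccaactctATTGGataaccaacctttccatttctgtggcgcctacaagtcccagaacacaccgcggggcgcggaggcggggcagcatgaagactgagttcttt
Psmg1: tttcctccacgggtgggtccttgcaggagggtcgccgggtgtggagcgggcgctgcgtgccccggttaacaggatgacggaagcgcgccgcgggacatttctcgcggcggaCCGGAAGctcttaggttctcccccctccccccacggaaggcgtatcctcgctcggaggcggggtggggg
These stretches lie at chr2:61711514-61711693 (plus strand), chr12:70974443-70974620 (plus), chr3:94886962-94887138 (minus), chr11:80428435-80428614 (plus), chr3:95042615-95042794 (minus) and chr16:95990961-95991140 (minus).

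CCGGAAG was found in 15 of the 44 member windows (34.1%), beside 8.86% of all 32851 windows in the table. It stood in 11 of the 32 windows of members that fell and in 2 of the 4 windows of members that rose. In Psmd11 it begins 11 bases before the start, in Psmd4 125 bases and in Psmg1 69 bases before it. The pattern TGANNNNGC, which covers antioxidant-response-like elements, was found in 25 member windows (56.8%, beside 41.3% of all). It also matches the AP-1 site TGACTCA where GC follows that site. CCAAT was found in 14 member windows (31.8%, beside 37.4%) and TATAAA in 4 (9.09%, beside 13.6%), among them Psmb4. TGACTCA was found in 1 window, that of Psmd9 (2.27%, beside 5.20%). AAGGTCA was found in 3 windows, those of Psma3, Psmb10 and Psmd2 (6.82%, beside 4.72%), and in Psma3 it begins 153 bases before the start. These are matches of letters, not tests of binding. Member windows held more G and C (median 57.3%) than all windows (52.7%), and no share above was adjusted for that.

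Of the 49 members, 44 had counts high enough to be tested, and the counts below are of those 44, not of all members. With SR1848, 34 were lower and 5 higher than with DMSO at an adjusted p under 0.05, and 5 did not pass (edgeR quasi-likelihood test, Benjamini-Hochberg over 13222 genes). Over all genes tested, 36.5% were lower and 45.6% higher. The median log2 fold change was -1.63 over the 44 members and 0.24 over all genes tested. At least 4-fold lower were 17 of the 44, beside 11.8% of all genes. In 4 members (Psma3, Psmb1, Psmb4 and Psmd14) every SR1848 embryo lay below every DMSO embryo, which held for 1.69% of all genes. Summed over all members, transcripts made up 5432 ± 759.6 CPM with DMSO and 2799 ± 403 with SR1848, and 79 of 80 SR1848 embryos lay below the lowest DMSO embryo. CPM are shares of the library of a single embryo, labelled 2-cell in both groups. Whether treated embryos held less RNA cannot be told from these shares, and RNA per embryo was not measured. Scaled instead to the sum of 31 stored oocyte transcripts, 43 members were lower and 0 higher. That scaling moved the median of all genes to -1.14 and the share of calls that were lower from 44.5% to 90.5%. Of the 30 of these transcripts that were tested, 27 were higher with SR1848 by the standard scaling, and Zbed3 and Spin1 made up 55.7% of the sum with DMSO and 67.6% with SR1848. The higher members turned with the summed scaling: Psma7 (-0.51), Psmd3 (-0.32), Psme4 (-0.96), Psmg1 (-0.54) and Psmf1 (-0.13, not passing). The 5 that did not pass became lower (Psmd2 -1.28, Psmd7 -1.42, Psmd9 -1.36, Psmd10 -1.40 and Psme3 -1.48). Without Zbed3 and Spin1, or with the transcripts at equal weight, 40 members were lower and 1 higher, and the median of all genes was -0.58 or -0.68 and the lower share of calls 73.5% or 76.7%. Psmf1 stayed higher in both (0.36 and 0.33), and Psme4 was lower in both (-0.44 and -0.53). Psmd3 (0.39 and 0.26), Psma7 (0.09 and -0.02) and Psmg1 (0.05 and -0.08) did not pass. Upper-quartile scaling moved the median of all genes to 0.46 and gave 30 members lower and 8 higher, beside 32.2% and 51.1% of all genes.

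**Figure D1:**
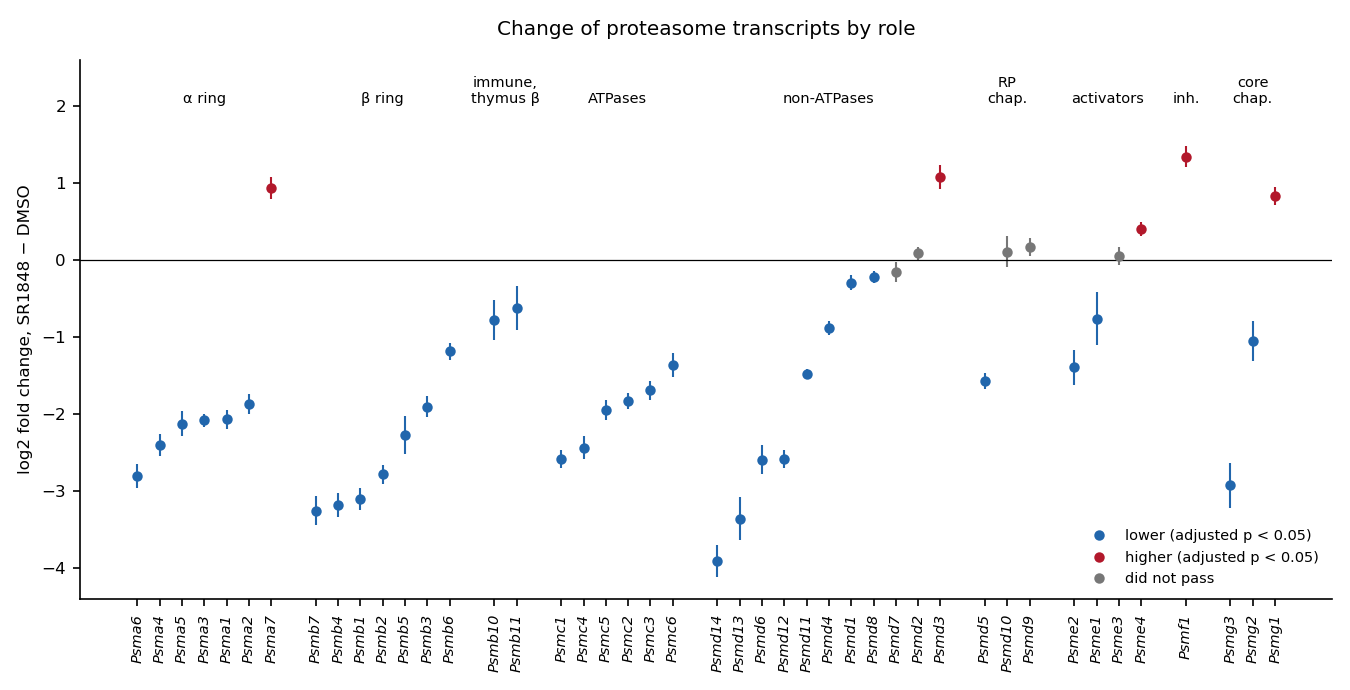
Log2 fold change (SR1848 minus DMSO, 80 against 50 embryos) of the 44 tested members, ordered by role, with standard errors as bars. All tested β-ring subunits and ATPases lie below 0, and Psma7, Psmd3, Psme4, Psmf1 and Psmg1 above 0, which the summed oocyte scaling turns. RP chap., inh. and core chap. are the regulatory-particle chaperones, the inhibitor and the core assembly chaperones.

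Of the α ring, which forms the outer rings of the core and its gate, 7 of 8 subunits were tested, with 6 lower and 1 higher (median log2 fold change -2.08). Psma6 had both the largest fall of this ring and its highest control level per length, 193 CPM per kb of transcript. It ran from 80.7 through a median of 184 to 430 CPM in DMSO embryos and from 0 through 25.98 to 92.3 CPM in SR1848 embryos. Only 1 treated embryo reached the control range, and Psma6 was 6.98-fold lower (log2 fold change -2.80 ± 0.16 SE, adjusted p = 2.63e-35). Psma3, whose transcripts are described further below, ran from 98.6 through 180 to 339 CPM with DMSO and from 16.9 through 44.3 to 86.6 CPM with SR1848. The groups did not overlap, and the fall was 4.23-fold (log2 fold change -2.08 ± 0.09, adjusted p = 1.50e-48). Counting protein-coding transcripts only ended this call (-0.04, adjusted p = 0.690). Psma1, Psma2, Psma4 and Psma5 fell between 3.65-fold (Psma2) and 5.28-fold (Psma4).

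Psma7 was the exception in this ring. It ran from 13.9 through 77.9 to 197 CPM with DMSO and from 25.7 through 145 to 474 CPM with SR1848. The groups overlapped widely: 18 treated embryos lay above the highest control and 65 above the control median. Its log2 fold change was 0.93 ± 0.14 (1.91-fold, adjusted p = 1.49e-09), and it turns to -0.51 with the summed oocyte scaling. Psma8, the α subunit that takes the place of Psma7 in testis, was at most 2.18 CPM with DMSO and 2.32 with SR1848, was 0 in 33 and 69 embryos, and was not tested.

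All 7 subunits of the β ring were lower (median log2 fold change -2.78). Psmb5, Psmb6 and Psmb7 carry the cutting sites, and Psmb7 fell the most, from 12.95 through 43.8 to 72.2 CPM with DMSO to a range from 0 through 3.30 to 26.9 CPM with SR1848. That is 9.52-fold (log2 fold change -3.25 ± 0.19, adjusted p = 1.09e-33), and 77 of 80 treated embryos lay below every control. Psmb5 fell 4.82-fold and Psmb6 2.28-fold, the smallest fall of the ring. The subunits without a cutting site fell as well. Psmb4 ran from 68.9 through 149 to 313 CPM with DMSO and from 1.18 through 14.04 to 56.9 CPM with SR1848, with no overlap, and fell 9.06-fold (log2 fold change -3.18 ± 0.16, adjusted p = 4.45e-41). Psmb1 ran from 132 through 245 to 514 CPM and from 2.37 through 25.3 to 113 CPM, also with no overlap, and fell 8.55-fold. Psmb2, the most abundant of the ring per length with DMSO (245 CPM per kb), ran from 81.9 through 200.4 to 348 CPM with DMSO and from 4.57 through 25 to 97.9 CPM with SR1848. Only 1 treated embryo reached the control range, and Psmb2 fell 6.88-fold (log2 fold change -2.78 ± 0.13, adjusted p = 6.11e-44). Psmb3 fell 3.74-fold. The ring's summed level was 923 ± 179.6 CPM with DMSO and 158.5 ± 60.6 with SR1848, and all 80 treated embryos lay below the lowest control.

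**Figure D2:**
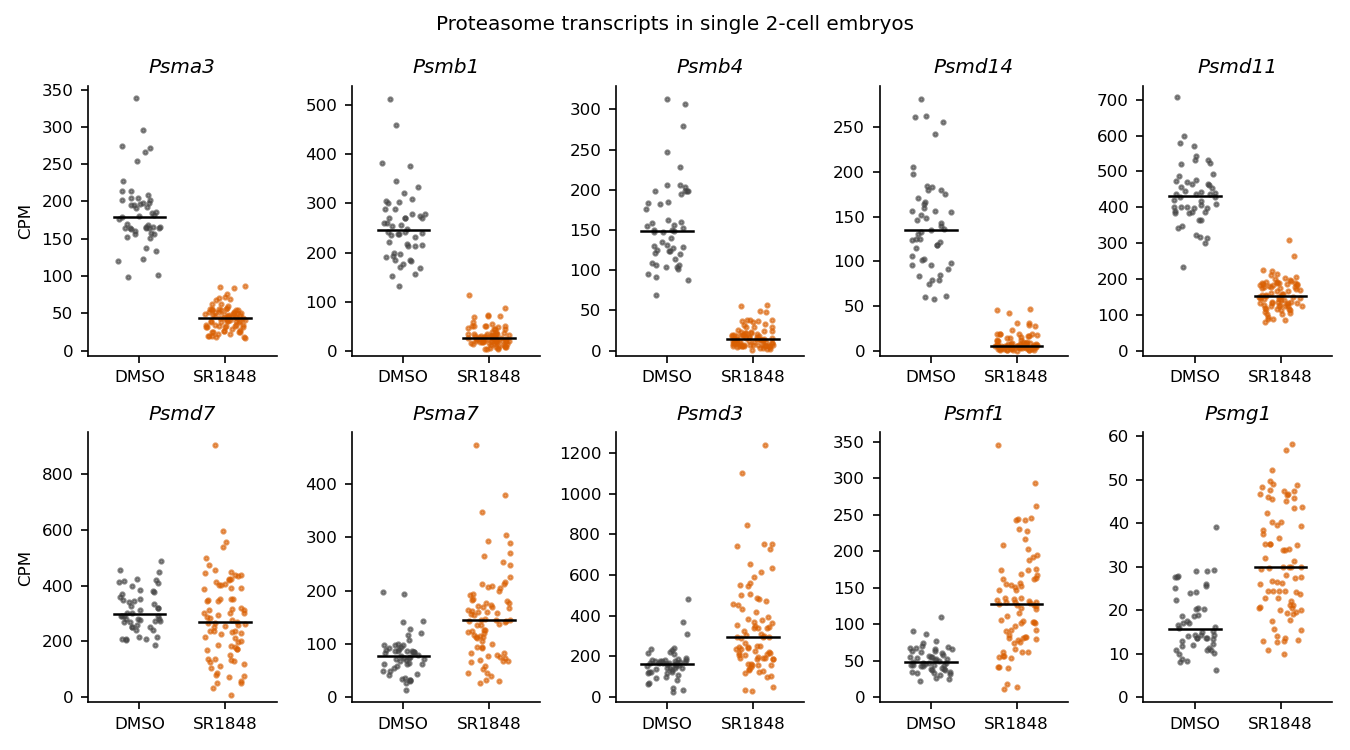
CPM of 10 members in each embryo (points) with the group median (bar), 50 DMSO and 80 SR1848 embryos. Psma3, Psmb1, Psmb4 and Psmd14 show no overlap between groups, while Psmd7, Psma7, Psmd3, Psmf1 and Psmg1 overlap.

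Psmb8, Psmb9 and Psmb10 replace Psmb5, Psmb6 and Psmb7 in the immunoproteasome, the form that lymphoid and interferon-treated cells make, and Psmb11 belongs to the form of the thymus cortex. All 4 were scarce. Psmb8 had medians of 0.137 CPM with DMSO and 0.401 with SR1848 and highest values of 1.197 and 11.4, and Psmb9 had medians of 0 and highest values of 2.21 and 3.75. Neither was tested. Psmb10 ran from 0.671 through 7.75 to 27.5 CPM with DMSO and from 0 through 3.15 to 22.1 CPM with SR1848, with wide overlap (log2 fold change -0.78 ± 0.27, adjusted p = 0.00529). Counting only its protein-coding transcripts gave 0.37, and embryos numbered up to 40 (-0.55) or above 40 (-1.07) alone did not pass either. Psmb11 had a log2 fold change of -0.62 ± 0.28 (adjusted p = 0.0375), and that call ended in 7 of the other fits.
As log2 ratios with 0.5 CPM added, Psmb10 to Psmb7 was -2.48 ± 1.15 (SD, n = 50) with DMSO and -0.07 ± 1.33 (n = 80) with SR1848, with 47 treated embryos above the highest control. Psmb8 to Psmb5 was -7.42 ± 0.59 and -3.44 ± 2.42, Psmb9 to Psmb6 was -7.11 ± 0.80 and -5.21 ± 1.29, and Psma8 to Psma7 was -6.81 ± 0.76 and -7.90 ± 0.88. In the ratios to Psmb5, Psmb6 and Psmb7 the denominator fell, and Psmb8 and Psmb9 lie near the added value.

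The 6 ATPases, Psmc1 to Psmc6, form the ring that unfolds the substrate and threads it into the core. All 6 were lower (median log2 fold change -1.89). Psmc1 had the largest fall and the highest control level per length, 91.6 CPM per kb. It ran from 58.01 through 140 to 249.6 CPM with DMSO and from 3.63 through 22.7 to 69.5 CPM with SR1848, and 79 treated embryos lay below every control. The fall was 5.98-fold (log2 fold change -2.58 ± 0.12, adjusted p = 2.13e-43). Psmc4 fell 5.41-fold, Psmc5 3.86-fold, Psmc2 3.55-fold and Psmc3 3.23-fold. Psmc6 fell least, 2.58-fold, from 59.9 ± 23.5 to 23.2 ± 15.1 CPM. The summed ATPases stood at 616 ± 131 CPM with DMSO and 157 ± 51.7 with SR1848, with no overlap between groups.

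The 11 non-ATPase subunits of the regulatory particle were more divided: 8 were lower, 1 was higher and 2 did not pass (median log2 fold change -0.88). Psmd14 is the lid enzyme that cuts the ubiquitin chain off the substrate, and it had the largest fall of all members. It ran from 58.01 through 135 to 282 CPM with DMSO and from 0 through 5.62 to 46.9 CPM with SR1848. No treated embryo reached the lowest control, and the fall was 14.95-fold (log2 fold change -3.90 ± 0.21, adjusted p = 6.45e-38). Psmd7, the lid subunit that pairs with Psmd14, did not pass. It ran from 187.5 through 297 to 489 CPM with DMSO and from 6.32 through 269 to 905 CPM with SR1848 (log2 fold change -0.16 ± 0.13, adjusted p = 0.272). The medians lay close, and the treated embryos spread both below and above the controls, 23 under the lowest and 5 over the highest. With total-count scaling (-0.31) and with limma-voom (-0.39) Psmd7 passed as lower.

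Psmd13, a lid subunit, fell 10.2-fold from 23.4 ± 10.9 to 2.26 ± 2.51 CPM, and 19 treated embryos had no count of it. It shares 342 exon bases with Sirt3 on the other strand, and the counting is not stated to use strand. Psmd6 fell 6.03-fold and Psmd12 5.98-fold, both lid subunits. Psmd11, a lid subunit and the most abundant 26S subunit per length with DMSO (329 CPM per kb), ran from 234 through 432 to 707 CPM with DMSO and from 79.4 through 151 to 309 CPM with SR1848. It fell 2.80-fold (log2 fold change -1.49 ± 0.06, adjusted p = 3.38e-47), and 2 treated embryos reached the control range. Psmd4, a ubiquitin receptor of the cap, fell 1.85-fold from 211 ± 72.04 to 114 ± 44.7 CPM.

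Psmd1 and Psmd2 are the large scaffold subunits of the base, and their groups overlapped almost fully. Psmd2 ran from 70.4 through 146 to 282.5 CPM with DMSO and from 65.6 through 157 to 324 CPM with SR1848, and did not pass (log2 fold change 0.08 ± 0.09, adjusted p = 0.380). Upper-quartile scaling gave 0.31, which passed as higher. Psmd1 fell 1.23-fold (log2 fold change -0.29 ± 0.10, adjusted p = 0.00486), but the call ended with upper-quartile scaling (-0.06) and in embryos numbered above 40 (-0.24), and counting only protein-coding transcripts gave 0.25, which passed as higher. Psmd8, a lid subunit, had a log2 fold change of -0.22 ± 0.08 (adjusted p = 0.00575), which was 0.00 with upper-quartile scaling, and 5 more fits ended that call.

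Psmd3, a lid subunit, was the only subunit of the cap that passed as higher. It ran from 25.5 through 165 to 481 CPM with DMSO and from 29.8 through 294.5 to 1240 CPM with SR1848. The groups overlapped, with 17 treated embryos above the highest control and 64 above the control median. Its log2 fold change was 1.07 ± 0.16 (2.10-fold, adjusted p = 6.50e-10), and it turns to -0.32 with the summed oocyte scaling.

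**Figure D3:**
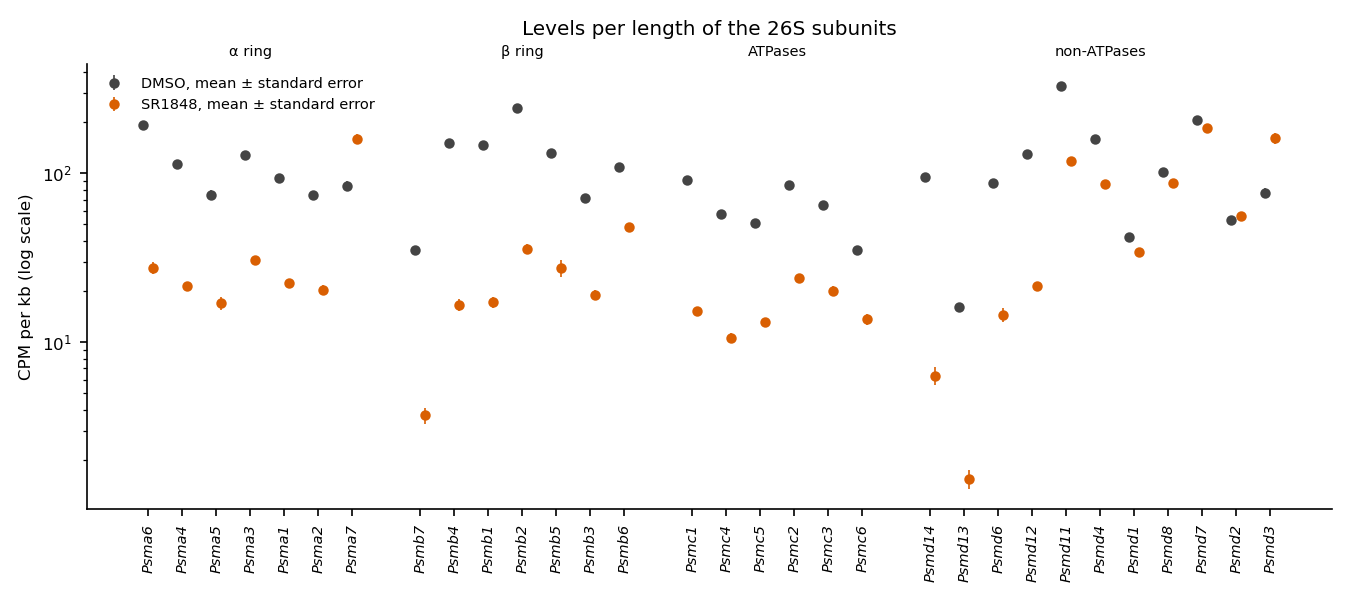
Mean CPM per kb of the 31 tested subunits of the 26S particle in 50 DMSO and 80 SR1848 embryos, log axis, bars standard errors of the mean. Control levels lie between 16.1 (Psmd13) and 329 (Psmd11), and treated levels between 1.55 (Psmd13) and 185 (Psmd7).

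Subunits occur in fixed numbers in the particle, so levels per length were set side by side. Among the 14 tested core subunits the highest mean level (Psmb2, 245 CPM per kb) was 6.94 times the lowest (Psmb7, 35.3) with DMSO. With SR1848 the highest (Psma7, 160 CPM per kb) was 43.4 times the lowest (Psmb7, 3.69). Among all 31 tested subunits of the 26S particle the ratio was 20.5 with DMSO and 119.5 with SR1848. Within an embryo, the coefficient of variation across the 14 core subunits had a median of 52.2% with DMSO (range 35.5% to 69.6%) and 118% with SR1848 (43.3% to 246.5%). That variation includes Psma7 and subunits with few counts, and their part in it was not tested. Neighbours in the order of mean levels often lie within their spread between embryos, so the order itself is a description. Lengths are count-weighted means of annotated transcripts.

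The chaperones of the regulatory particle, Psmd5, Psmd9 and Psmd10, bind ATPases during assembly and are absent from the finished particle. Psmd5, the most abundant of them per length (101.5 CPM per kb with DMSO), ran from 169 through 344 to 542 CPM with DMSO and from 24.5 through 108 to 348 CPM with SR1848. It was 2.97-fold lower (log2 fold change -1.57 ± 0.10, adjusted p = 4.83e-31), and 71 treated embryos lay below every control. Psmd9 ran from 23.9 through 45.9 to 90.4 CPM with DMSO and from 8.53 through 48.3 to 165 CPM with SR1848 and did not pass (log2 fold change 0.17 ± 0.12, adjusted p = 0.174). Upper-quartile scaling gave 0.40, which passed as higher. Of its exon bases 25.5% are shared with the long noncoding gene Gm26745 on the other strand. Psmd10 (gankyrin) ran from 1.02 through 4.83 to 14.3 CPM and from 0 through 4.24 to 20.4 CPM and did not pass (log2 fold change 0.11 ± 0.20, adjusted p = 0.624). For both, the treated range enclosed the control range.

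Chaperones of the core build the α ring and dock the β subunits. Psmg3 fell 7.60-fold, from a range of 2.27 through 17.3 to 30.7 CPM with DMSO to a range of 0 through 1.22 to 11.5 CPM with SR1848 (log2 fold change -2.93 ± 0.29, adjusted p = 1.14e-17). It had the highest control level per length of the group, 20.3 CPM per kb, and 49 treated embryos lay below every control. Psmg1 went the other way, from 6.28 through 15.6 to 39.1 CPM with DMSO to a range of 9.87 through 29.9 to 58.3 CPM with SR1848. The groups overlapped, with 71 of 80 treated embryos above the control median, and the log2 fold change was 0.83 ± 0.11 (1.78-fold, adjusted p = 4.68e-11), which turns to -0.54 with the summed oocyte scaling. Psmg2, the partner of Psmg1, fell 2.07-fold (adjusted p = 0.000144), but among embryos numbered above 40 it did not pass (-0.91, adjusted p = 0.0834). Psmg4 had medians of 1.52 and 1.02 CPM and was not tested.

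Other caps open the core without ubiquitin. Psme1 and Psme2 form the PA28αβ activator, and both were lower: Psme2 fell 2.62-fold, from a range of 1.68 through 11.9 to 35.3 CPM to a range of 0 through 4.22 to 22.6 CPM (log2 fold change -1.39 ± 0.23, adjusted p = 1.86e-08), with 17 treated embryos below every control. Psme1 had a log2 fold change of -0.76 ± 0.34 (adjusted p = 0.0347) at 6.00 ± 5.27 and 3.53 ± 4.50 CPM, and 7 of the other fits ended that call. Psme2b, a gene close in sequence to Psme2, was at most 1.99 CPM in any embryo and was not tested. Psme3, the nuclear PA28γ, ran from 28.6 through 68.6 to 145 CPM with DMSO and from 24.6 through 61.8 to 204 CPM with SR1848 and did not pass (log2 fold change 0.05 ± 0.12, adjusted p = 0.702). Upper-quartile scaling (0.28) and protein-coding transcripts alone (0.38) passed as higher. Psme4 (PA200), the most abundant activator per length (40.03 CPM per kb with DMSO), ran from 102 through 244 to 549 CPM with DMSO and from 120 through 323 to 922 CPM with SR1848. Its log2 fold change was 0.40 ± 0.09 (1.324-fold, adjusted p = 4.83e-05), which turns to -0.96 with the summed oocyte scaling, and embryos numbered above 40 gave 0.03.

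Psmf1 (PI31), named as an inhibitor of the core, had the largest rise of all members. It ran from 21.6 through 48.6 to 109.5 CPM with DMSO and from 10.7 through 127 to 346 CPM with SR1848. In 47 of 80 treated embryos it lay above every control, and in 74 above the control median. The log2 fold change was 1.34 ± 0.13 (2.53-fold, adjusted p = 1.56e-17), which the summed oocyte scaling turns to -0.13, not passing. Without Zbed3 and Spin1 in that sum it was 0.36, and with the transcripts at equal weight 0.33, and both passed as higher.

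**Figure D4:**
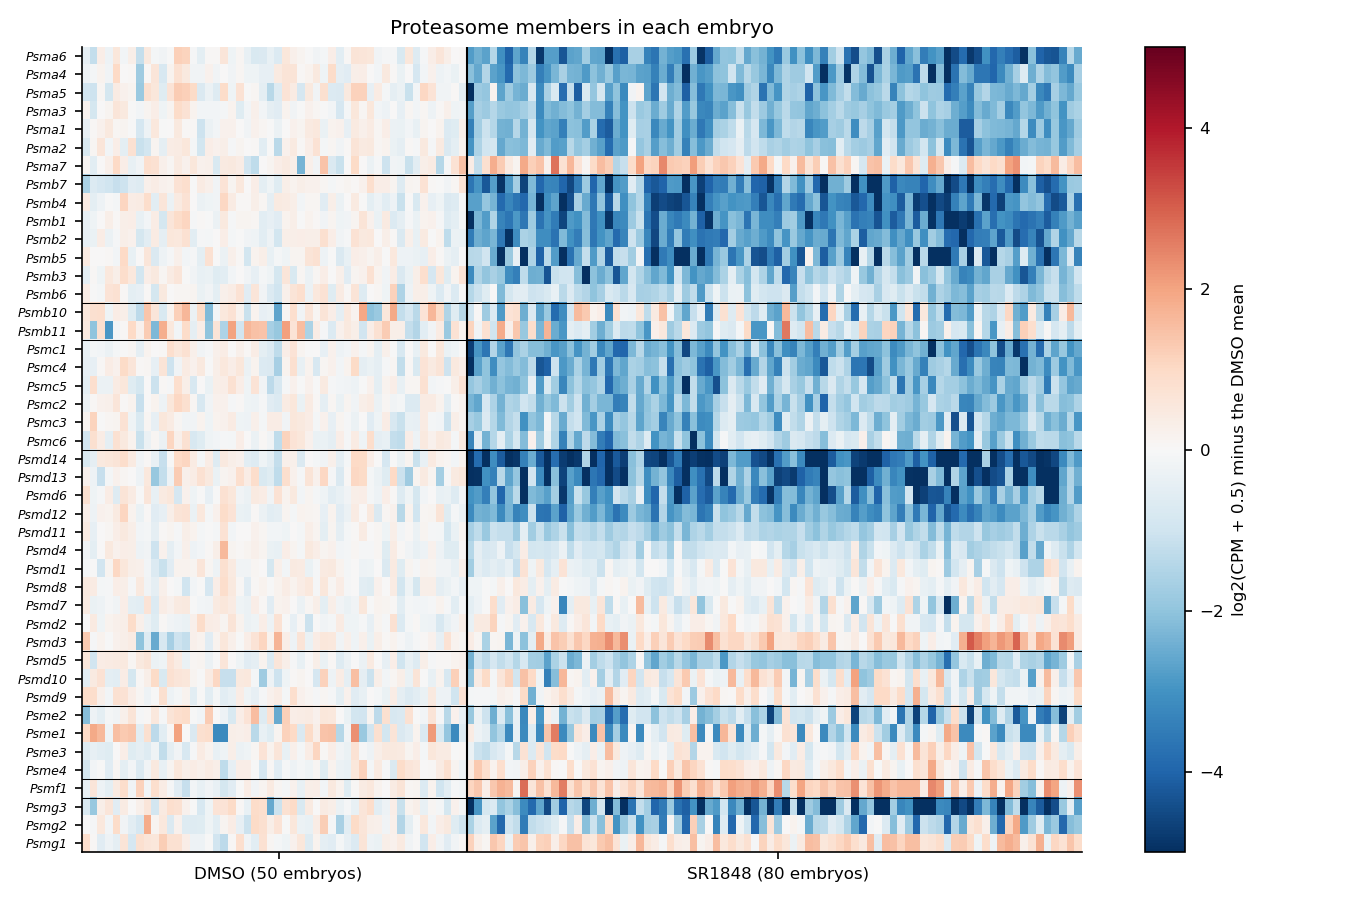
The 44 tested members (rows, by role) in 50 DMSO and 80 SR1848 embryos (columns, in the order of the labels), as log2(CPM + 0.5) minus the DMSO mean. Most rows of both core rings and the ATPases are below the control mean in the treated columns, and Psma7, Psmd3, Psmf1 and Psmg1 are above it in most.

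Of the 34 lower members, a treated embryo held from 5 through a median of 10 to 17 at or above the lowest control. In this set 0 of 80 treated embryos had none. Among the 17 members at least 4-fold lower, the number ran from 0 through a median of 1 to 6, and 20 embryos had none. Both sets were chosen by their fall in these same embryos, so these counts only describe it. In the core rings together, the summed level was 1897 ± 384 CPM with DMSO and 504 ± 159 with SR1848, and all 80 treated embryos lay below the lowest control. Within groups the members followed each other weakly. The median pairwise Spearman correlation over embryos was 0.13 with DMSO and 0.12 with SR1848 (44 members), beside 0.00 for all pairs of tested genes in each group, and these values share library depth and scaling. With SR1848, Psma6 (median 0.30 with the other members), Psmb1 (0.28) and Psma1 (0.25) were the most like the rest, and Psme3 (-0.18) and Psmd3 (-0.16) the least.

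The labels number the embryos. Only embryos numbered up to 40 (40 SR1848, 35 DMSO) gave 31 members lower and 5 higher, beside 35.5% and 43.2% of all genes tested in those embryos. Only those above 40 (40 SR1848, 15 DMSO) gave 28 lower and 4 higher, beside 28.9% and 33.4%. What these numbers record is unknown here.

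At the level of transcripts, 97 transcripts of the 44 members were tested, and 63 were lower and 15 higher, beside 35% lower and 38.5% higher of all 25761 transcripts tested. In the authors' deposited table of comparisons per transcript, 104 of the 218 member transcripts with an adjusted p were lower and 19 higher at 0.05, beside 26.4% and 19.3% of all 66633 transcripts with an adjusted p in the authors' deposited table. Of the 97 tested here, 89 have the same sign in the authors' deposited table, which rests on the same embryos. Shares of a gene's transcripts were altered in 18 of the 28 members with several tested transcripts, beside 53.6% of all 6447 genes tested (edgeR diffSpliceDGE, gene-level test). With only transcripts that hold at least 10% of a gene's counts, 19 members still had several, and 9 of these were called (12 without the filter), beside 44.5% of 5304 genes. Another 6 that were called without it (Psma1, Psma4, Psmc2, Psmd3, Psmd7 and Psme3) could not be tested with it. The division of reads among overlapping transcripts is kallisto's estimate.

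Psma3 had the largest shift. The transcript with a long last exon of 1997 bases (ENSMUST00000160027, protein coding, chr12:70974621-70996347, plus strand) ends at least 1842 bases beyond the other 3 tested, whose last exons measure 125 to 155 bases. It ran from 17.4 through 26.7 to 43.1 CPM with DMSO and from 9.46 through 27.9 to 70.6 CPM with SR1848, and did not pass (log2 fold change 0.11 ± 0.10, adjusted p = 0.309). The transcripts with short ends fell: ENSMUST00000160683 was 17.7-fold lower (log2 fold change -4.15 ± 0.33), ENSMUST00000071704 10.8-fold and ENSMUST00000160864 7.54-fold. The long form thus carried 14.9 ± 4.61% of Psma3 counts with DMSO and 68.96 ± 17.7% with SR1848 (adjusted p = 1.70e-25 for transcript use). Counting protein-coding transcripts only, which leaves out the short-ended forms annotated as retained intron or nonsense-mediated decay, gave Psma3 a log2 fold change of -0.04, not passing.

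**Figure D5:**
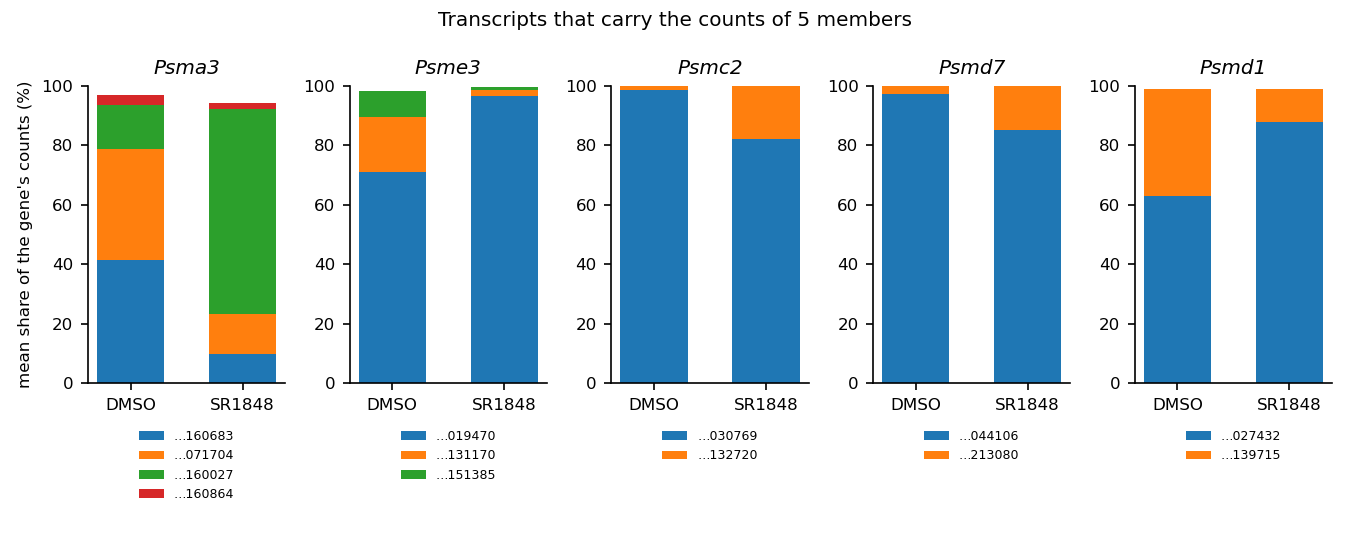
Mean share of a gene's counts (%) carried by each tested transcript of 5 members in DMSO and SR1848 embryos, transcripts named by the last digits of their Ensembl identifiers. The long-ended Psma3 transcript grows from 14.9% to 68.96%, and the main Psme3 transcript from 71.2% to 96.5%.

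Psme3 did not pass as a gene, but its transcripts split (adjusted p = 1.24e-29 for transcript use). The main form (ENSMUST00000019470, chr11:101316213-101323537) went from 52.4 ± 17.8 to 71.1 ± 38.5 CPM (log2 fold change 0.44 ± 0.12, adjusted p = 0.000693), a call that ended with RLE scaling (0.19). A form that starts 764 bases downstream (ENSMUST00000151385) fell 11.1-fold from 7.01 ± 5.49 to 0.610 ± 1.23 CPM, and ENSMUST00000131170, a processed transcript inside the gene, fell 8.81-fold. Psmd7 also split (adjusted p = 1.25e-22): its main form (ENSMUST00000044106) fell 1.321-fold, while a single-exon form annotated as a retained intron (ENSMUST00000213080, chr8:107587599-107588458) rose 5.35-fold, from 2.62 ± 1.69% to 14.7 ± 10.2% of the gene's counts. In Psmc2 the main form (ENSMUST00000030769) fell 4.45-fold and a retained-intron form (ENSMUST00000132720) rose 3.33-fold, from 1.43 ± 1.18% to 17.7 ± 17.2% of counts (adjusted p = 1.42e-27). In Psmd1 the main form (ENSMUST00000027432) went from 77.8 ± 22.2 to 84.5 ± 28.9 CPM and did not pass, and a form annotated for nonsense-mediated decay that lacks the 170 bases of exon 4 (ENSMUST00000139715) fell 3.30-fold.

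Transcript use also passed in Psmb6 (adjusted p = 1.22e-13), Psmd8 (1.01e-07) and Psmd5 (7.31e-21). The main Psmb6 form (ENSMUST00000018430) went from 84.35 ± 5.29% to 73.3 ± 8.16% of counts, and a retained-intron form (ENSMUST00000128870) from 8.19 ± 4.48% to 19.5 ± 8.37%. A Psmd8 form that starts 121 bases upstream (ENSMUST00000186182) went from 10.6 ± 5.74% to 20.9 ± 11.1%, and its own rise (log2 fold change 0.71) did not pass with RLE scaling (0.46). A single-exon transcript of Psmd5 (ENSMUST00000202917) rose 3.44-fold to 6.11 ± 6.39% of counts. It ends 146 bases upstream of the main Psmd5 start, so it does not overlap the main form. The 5 members with both a lower and a higher transcript were Psmc2, Psmd5, Psmd7, Psmd8 and Psme3. With RLE scaling they were 4: Psmc2, Psmd5, Psmd7 and Psmd9. Of the 10 members whose transcript use did not pass, Psmb1 (adjusted p = 0.0524) lay nearest the threshold.

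A total of 8 members have a protein-coding neighbour on the opposite strand whose start lies within 1 kb upstream, so that the pair are read away from each other. Tbp, the TATA-binding protein, starts 137 bases from Psmb1 and fell from 243 ± 50.5 to 26.8 ± 13.1 CPM (log2 fold change -3.18 ± 0.11, adjusted p = 4.05e-56), beside -3.10 for Psmb1. Ftsj3, an RNA methyltransferase of ribosome assembly, starts 75 bases from Psmc5 and had -2.16 ± 0.22, beside -1.95. Ss18l1 starts 76 bases from Psma7 and had 1.77 ± 0.14, beside 0.93. With the summed oocyte scaling Ss18l1 had 0.39 and Psma7 -0.51. Mrpl32, a mitochondrial ribosomal protein 75 bases from Psma2, had -0.38 ± 0.14 (adjusted p = 0.0105), beside -1.87. Dnajc2, 32 bases from Psmc2, did not pass (-0.14 ± 0.12), beside -1.83. Rnf31 beside Psme2 (-0.56 ± 0.30), Cep76 beside Psmg2 (-0.32 ± 0.20) and Atg4a beside Psmd10 (0.46 ± 0.24) did not pass either. Those calls depend on the fit: Rnf31 (-0.66) and Cep76 (-0.44) passed as lower with RLE scaling, Dnajc2 (-0.33) with total counts, and Atg4a (0.68) as higher with upper-quartile scaling, which also ended the call of Mrpl32 (-0.15). Of the 6 lower members with a tested neighbour, 3 had a neighbour that was lower, 3 one that did not pass and 0 one that was higher. Among all genes tested, 36.5% were lower and 45.6% higher.

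Partners of the proteasome whose symbols fall outside the rule were mixed, with 5 lower, 4 higher and 2 not passing of 11 tested. Beside the counts in this paragraph stand 36.5% lower and 45.6% higher of all genes tested. Pomp, the maturation factor of the core, fell 2.98-fold from 83.5 ± 26.3 to 28.02 ± 9.61 CPM (log2 fold change -1.57 ± 0.09). Sem1, the smallest lid subunit, fell 4.34-fold from 52.7 ± 14.3 to 12.1 ± 7.06 CPM. Zfand5, a proteasome-binding zinc-finger protein and the most abundant of the list, did not pass (627 ± 497 and 590.2 ± 852 CPM), though it passed as lower with limma-voom (-0.58). Of 13 shuttle factors and segregase genes, 5 were lower, 4 higher and 4 did not pass. Ubxn1, a cofactor of the segregase Vcp, fell 10.25-fold from 259 ± 72.4 to 25.2 ± 16.3 CPM, and Ubxn7, another cofactor, fell 3.78-fold. Ubqln1, a shuttle factor, was 1.575-fold higher, which turns with the summed oocyte scaling (log2 fold change -0.74) and did not pass in the embryos used for the block fit, with the block (0.11) or without it (0.25). Of the 6 genes for ubiquitin and its activating enzymes, 4 were lower and 2 higher. Ubb, a polyubiquitin gene, went from 1865 ± 384 to 4023 ± 1227 CPM (2.16-fold), which turns with the summed oocyte scaling (-0.21, not passing), while Uba6, an activating enzyme, fell 7.20-fold from 50.7 ± 21.4 to 7.03 ± 7.48 CPM.

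Nfe2l1 is known as the factor that raises proteasome genes when the proteasome is impaired, and Ddi2 and Ngly1 process its protein. Of the 10 genes in this list 5 were higher and 2 lower, beside 45.6% and 36.5% of all genes tested. The other 3 did not pass. Ngly1 was 3.63-fold higher (53.4 ± 21.2 and 193.5 ± 119 CPM). Ddi2 was 1.95-fold higher (144 ± 55.7 and 282 ± 172 CPM), which turns with the summed oocyte scaling (-0.44) but not without Zbed3 and Spin1 (0.25, not passing). Nfe2l1 itself stood at 100.2 ± 28.6 and 108 ± 43.5 CPM and did not pass (log2 fold change 0.11 ± 0.09), and it is named after its values were seen. Among 9 tested partners of the immunoproteasome in antigen processing 5 were lower, 3 higher and 1 did not pass. Pdia3, a disulfide isomerase of the peptide-loading complex, fell 7.27-fold from 351 ± 121 to 48.3 ± 24.2 CPM, and B2m, the light chain of class I molecules, fell 4.76-fold from 77.4 ± 28.4 to 16.3 ± 9.97 CPM.

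The COP9 signalosome is a complex with a plan like that of the proteasome lid. It had 8 of 10 genes lower and 2 higher, beside 36.5% and 45.6% of all genes tested. Its median log2 fold change was -0.38. Cops6 fell 4.91-fold from 98.95 ± 32.2 to 20.15 ± 10.6 CPM, and Cops7b fell 2.42-fold. Cops4, the most abundant, had -0.38 ± 0.08 (adjusted p = 1.06e-05), and upper-quartile scaling ended that call (-0.15). Cops3 (-0.38), Cops7a (-0.37) and Cops8 (-0.30) had falls of like size, and their calls in other fits were not examined. The higher genes were Gps1 (0.77) and Cops9 (0.52). Whether the lid and the signalosome differ was not tested.

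Of the other genes that the symbol rule matched, Psmc3ip, a factor of meiotic recombination, fell 12.5-fold from 58.4 ± 24.6 to 4.64 ± 3.14 CPM, with all 80 treated embryos below every control. Psme3ip1, which binds PA28γ, fell 3.32-fold from 178 ± 48.4 to 53.6 ± 27.3 CPM. The pseudogenes Psma5-ps, Psmb5-ps, Psmb6-ps, Psmb6-ps2 and Psmb7-ps2 had group means of at most 2.21 CPM and were not tested. Reads of a parent gene and its copy can be divided wrongly, which was not tested here. In all, 14 of 49 members share exon bases with another gene, Psmd9 by 25.5% of its exon bases and the others by at most 14.7%.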

How the data were processed

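RNA of 130 single embryos was measured, 80 with SR1848 and 50 with DMSO, grouped by the labels' titles and treatment. The authors deposited kallisto estimated counts for each transcript. A deposited log2 table served only as a check. The authors' DESeq2 comparison, also deposited, holds log2 fold changes, p-values, a mean signal and a test score for each transcript. The submitters' processing notes name DESeq2 1.32.0, R 3.5.1, kallisto 0.46.1, Trim Galore 0.6.2 and bcl2fastq, and list mm10 and hg19 without a role. The annotation release was not stated. Transcripts were assigned to genes with the authors' deposited identifiers (117282) or GENCODE M21 (345). The 1726 without a gene (0.7355% of counts) and 5 other entries (0.0258%) stayed out. Of the deposited values 28.1% were not whole, and the sums were rounded. Coordinates, exons and transcript types are those of GENCODE M21 on mm10.

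Genes passing filterByExpr (minimum count 10) were tested in R 4.3.3 with the quasi-likelihood F test of edgeR 4.0.16, after TMM scaling and with robust dispersions. Adjusted p (Benjamini-Hochberg, 13222 genes) was called under 0.05. Transcripts were tested the same way, and transcript use with diffSpliceDGE. A standard error is the size of the log2 fold change divided by the square root of F. CPM use TMM-scaled totals and SDs are between embryos. Reads carry no molecular identifiers. No 2 libraries of a group agreed within sampling noise (lowest chi-square per gene 19.8). On simulated data with 200 changed genes among 13222, 79% of 2-fold and 95% of 4-fold changes were recovered. The 200 were raised and lowered in equal numbers, and all other genes stayed unchanged. In the real data 36.5% of genes were lower and 45.6% higher. The simulation therefore cannot show how the scaling acts where most genes change. For transcript use, 79.5% of 200 switches of 4-fold among 6447 genes were.

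Within each role, the largest called fall and rise, the most abundant member per length and those not passing are given in full. Each further list is represented by its most abundant gene and the 2 of lowest p, and all divergent neighbours are given. The members and lists were chosen with earlier results of these data known. Alternatives were RLE, upper-quartile, total-count and oocyte-transcript scaling, no filter or a mean of 5 CPM, limma-voom (limma 3.58.1), DESeq2 1.42.0, covariates for depth and detected genes, thinning, leaving out low embryos, an embryo-number block and protein-coding transcripts only. The oocyte scaling without Zbed3 and Spin1 or at equal weight (mean of log CPM with 1 added), splits at embryo number 40 and the block's embryos without the block were added after seeing the data.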

Additional observations from a re-analysis of the deposited data

How the results depend on the processing

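Under 19 other fits, 28 to 43 members were lower (34 as reported), and 27 members kept their call in every fit. Embryos numbered above 40 gave 28, beside 28.9% of all genes tested, and the oocyte sum gave 43, beside 70.1%. How many of all genes kept their call in every fit was not counted. With upper-quartile scaling 8 members were higher, beside 51.1% of all genes, and with the oocyte sum 0, beside 7.33%. Its forms without Zbed3 and Spin1 or at equal weight gave 1, beside 19.2% or 17.3% (5 as reported). Altered transcript use was called in 9 members with the 10% filter, beside 44.5% of genes, and in 16 with Simes (18 as reported). The share over all genes with Simes was not counted. The oocyte sum turned Psma7 (-0.51), Psmd2 (-1.28), Psmd3 (-0.32), Psmd9 (-1.36), Psmd10 (-1.40), Psme3 (-1.48), Psme4 (-0.96), Psmf1 (-0.13), Psmg1 (-0.54), Ubqln1 (-0.74), Ubb (-0.21), Ddi2 (-0.44) and Atg4a (-1.06). Without Zbed3 and Spin1 it turned Psmd10 (-1.03), Psmd2 (-0.70), Psmd9 (-0.86), Psme3 (-0.94), Psme4 (-0.44), Ubqln1 (-0.02) and Atg4a (-0.64), and at equal weight Psma7 (-0.02), Psmd10 (-1.01), Psmd2 (-0.82), Psmd9 (-0.87), Psme3 (-0.95), Psme4 (-0.53), Psmg1 (-0.08), Ubqln1 (-0.16) and Atg4a (-0.61). Values that did not pass and changed sign were Psmd10 (RLE -0.02, total counts -0.10, replicate block -0.09, DESeq2 -0.03, limma-voom -0.22, numbers above 40 -0.14), Psmd2 (-0.03 with RLE and DESeq2, total counts -0.09), Psmd9 (total counts -0.03) and Psme3 (RLE and DESeq2 -0.08, total counts and replicate block -0.16, detected genes -0.10, the block's embryos without it -0.04, limma-voom -0.07, numbers above 40 -0.05). Upper-quartile scaling turned Psmd7 (0.06), Psmd8 (0.00), Zfand5 (0.11) and Dnajc2 (0.07). Protein-coding transcripts alone turned Psmb10 (0.37) and Psmd1 (0.25), thinning Zfand5 (0.04), numbers above 40 Zfand5 (0.13) and Cep76 (0.12), and limma-voom Atg4a (-0.09). RLE scaling turned the transcripts ENSMUST00000027432 of Psmd1 (-0.15), ENSMUST00000128870 of Psmb6 (-0.09) and ENSMUST00000160027 of Psma3 (-0.16). The cause was not tested. Labels give both groups embryo numbers. Over 50 pairs the median correlation of same-numbered embryos was 0.019, beside -0.001 for embryos of other numbers. Of the pairs 2 exceeded 0.1, and 0 controls correlated best with their own number. These correlations show no clear pairing by number, but a weak one could be missed. With the replicate block 32 members were lower and 5 higher (37 in all), and without it in the same 100 embryos 31 and 6. The splits by number, the 2 further oocyte scalings and the fit of those 100 embryos were chosen after seeing the data. Psmb8, Psmb9, Psma8, Psme2b and Psmg4 were too low to test, and Psmd10, Psme1 and Psmb11 had group means of at most 6.00 CPM.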
